A study of Mus musculus with 9 samples.

Results

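The genes of MHC class II antigen presentation were followed in 9 whole tumors formed by NB9464, a MYCN-amplified neuroblastoma line of the mouse. Members were chosen by symbol: H2-Aa, H2-Ab1, H2-Eb1, H2-Eb2, H2-DMa, H2-DMb1, H2-Oa, H2-Ob, Cd74 and Ciita, which are 10 of the 54429 symbols in the table of estimated counts. Tumors were grown under the skin of WT C57BL/6 mice, had a volume of 250 mm3 at the start of treatment, and fell into 3 groups of 3 tumors. The vehicle group received no drug or radiation. The R788 + anti-PDL1 group received R788 (fostamatinib, a prodrug inhibitor of the kinase Syk) at 50 mg/kg and an antibody, clone 10F.9G2, that blocks the checkpoint ligand PD-L1. The Rad + R788 + anti-PDL1 group received the same agents and 10 Gy of radiation, and its tumors are called irradiated tumors 1 to 3. For treatment in general, the series text gives 4 doses from day 28 to day 37, without saying which agents they cover. The study's methods describe the mice as only weeks old when obtained. All tumors came from 1 transplanted line, and the labels do not say outright that each tumor came from its own mouse, so p-values measure only the spread between these tumors.

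MHC class II molecules carry peptides from engulfed material to the surface of dendritic cells, macrophages and B cells, where CD4 T cells read them. Each molecule pairs an alpha with a beta chain. The invariant chain, Cd74, fills the groove until endosomal proteases remove it, and the H2-DM dimer then exchanges the remaining fragment for peptide while H2-O restrains H2-DM. Transcription of these genes depends on Ciita, a coactivator that is recruited to a shared promoter module by factors already bound there and that interferon gamma induces in many cell types. In whole tumors, fewer cells of a type and less RNA per cell cannot be told apart.

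The promoter module is shown first, because it is what most members share outside their readouts. Its conserved parts are the X box, searched here by the core letters CNNGNAAC, and the Y box, searched as GATTGG, an inverted CCAAT element. RefSeq promoter windows (GRCm38.p6) running from 250 bases before to 50 bases after the transcript start existed for 7 of the 10 members. H2-Ab1, Cd74 and Ciita had no entry. An X core followed 15 to 40 bases later on the same strand by a Y box was found in 6 of these 7 genes. The following stretches, each read 5′ to 3′ along the gene, show that pair in capitals with 15 bases on either side.
H2-Aa: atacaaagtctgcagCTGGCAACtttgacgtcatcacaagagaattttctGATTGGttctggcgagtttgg
H2-Eb1: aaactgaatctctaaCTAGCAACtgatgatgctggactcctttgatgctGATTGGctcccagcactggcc
H2-Eb2: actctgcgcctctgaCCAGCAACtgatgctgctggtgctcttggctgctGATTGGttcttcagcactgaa
H2-DMb1: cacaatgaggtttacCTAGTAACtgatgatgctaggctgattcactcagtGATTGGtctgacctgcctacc
H2-Oa: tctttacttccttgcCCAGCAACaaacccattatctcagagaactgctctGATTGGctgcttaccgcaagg
H2-Ob: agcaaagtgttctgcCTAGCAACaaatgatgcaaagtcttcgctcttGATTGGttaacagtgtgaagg

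The stretches lie at chr17:34287852-34287922 on the minus strand for H2-Aa, and on the plus strand at chr17:34305758-34305827 for H2-Eb1, chr17:34325525-34325594 for H2-Eb2, chr17:34153079-34153149 for H2-DMb1, chr17:34092285-34092355 for H2-Oa and chr17:34238800-34238867 for H2-Ob. The gap between core and Y box was 24 bases in H2-Ob, 26 in H2-Eb1 and H2-Eb2, and 27 in H2-Aa, H2-DMb1 and H2-Oa. Both H2-DMa windows held an X core, and 1 also held a Y box, but not in this order and spacing. On either strand, the pair occurred in 111 of 32851 promoter windows of the same length (0.338%), the X core alone in 39.1% and the Y box alone in 16.1%. The letters and spacing were chosen after these promoters were seen, and a match is a description of sequence, not a bound site. The pair did not sort the members by level or by treatment pattern, since it was in H2-Aa and H2-Eb1 and also in H2-Eb2, H2-Oa and H2-Ob, which stayed near the detection limit or varied little.

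Total estimated counts ranged from 18276683 to 23397886 per library. The 10 members together took 0.00983% to 0.149% of them, lowest in vehicle tumor 2 and highest in irradiated tumor 3. Irradiated tumor 1 stood apart from the other 8, with a TMM normalization factor of 0.743 against 0.975 to 1.12. In the same tumor, mitochondrial genes took 1.97% of counts against 3.48% to 5.71%, and levels depended on exon length as described for Ciita. Among neuroblast markers, Mycn (93.3 to 250 CPM, the count scaled by the TMM-adjusted library size) and Hand2 (325 to 867 CPM) were detected in every tumor, but Th was at 0 in all 9. The labels' extraction text names bone marrow-derived macrophages although the tissue is given as whole tumor.

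Per kilobase of exon, Cd74 was the most abundant member in every tumor, at 26.9 ± 3.47 CPM per kb in vehicle tumors (SD, n = 3). H2-DMb1 followed at 11.2 ± 2.88 CPM per kb, then H2-Eb1 at 6.42 ± 0.724, H2-Ab1 at 5.96 ± 0.702, H2-Aa at 3.54 ± 0.107 and H2-DMa at 2.07 ± 0.97 CPM per kb. The levels of H2-Eb1 and H2-Ab1 differed by less than their spread. H2-Oa, at 0.847 ± 0.134 CPM per kb, lay about an order of magnitude above Ciita, H2-Ob and H2-Eb2, at 0.0814 ± 0.034, 0.0809 ± 0.115 and 0.0323 ± 0.056 CPM per kb. These last 3 could not be ordered within their spread. Exon length here is the union of all annotated exons of a gene, and parts of this order depend on it. In CPM, not divided by length, vehicle means were 13.4 for H2-Aa, 15.3 for H2-Ab1 and 12.5 for H2-Eb1. On that scale H2-Oa was at 1.19 ± 0.189 and Ciita at 0.777 ± 0.324 CPM.

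**Figure D1:**
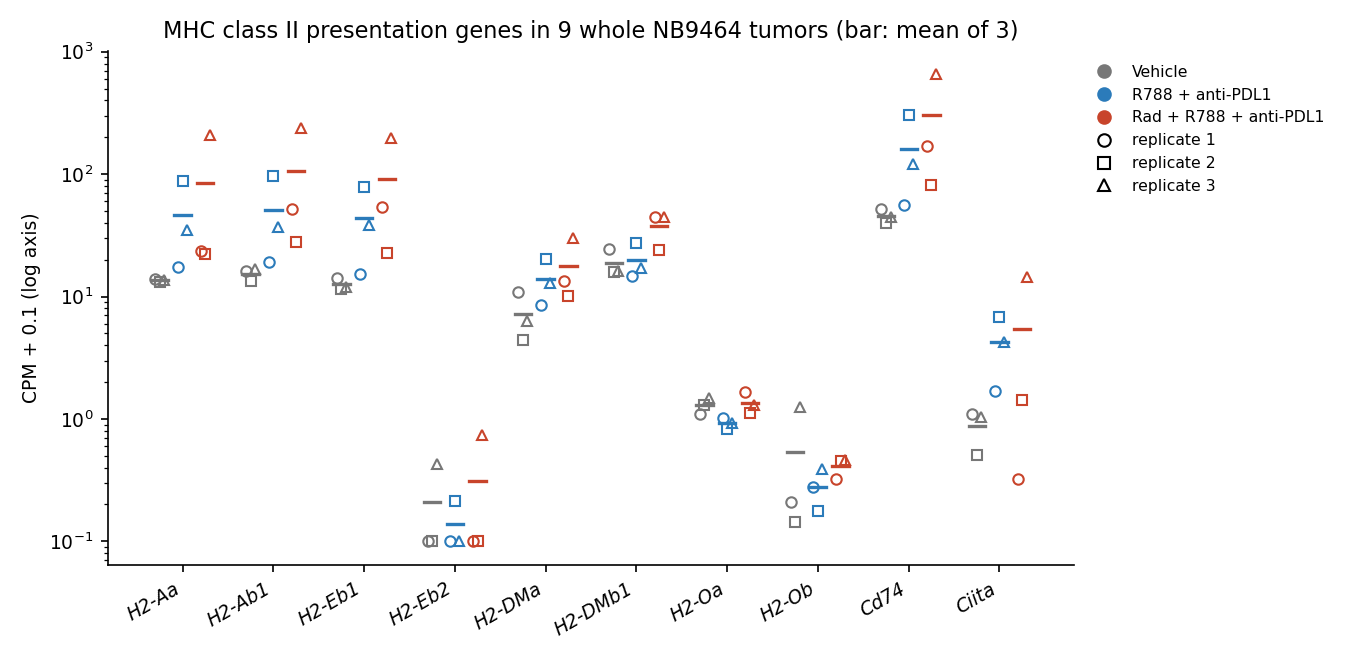
Level of each class II gene in each of the 9 tumors, as CPM plus 0.1 on a log axis, with color for the group, symbol for the replicate and a bar for the mean of 3 tumors. The 3 vehicle tumors lie close together for H2-Aa, H2-Ab1, H2-Eb1 and Cd74, and in the treated groups R788 + anti-PDL1 tumor 2 and irradiated tumor 3 lie highest for these genes.

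H2-Aa and H2-Ab1 encode the alpha and beta chains of I-A, the main class II molecule of C57BL/6 mice. H2-Aa (chr17:34282744-34287823, minus strand) measured 13.7, 13 and 13.6 CPM in vehicle tumors 1 to 3, 17.4, 87.6 and 34.7 CPM in R788 + anti-PDL1 tumors 1 to 3, and 23.3, 22 and 208 CPM in irradiated tumors 1 to 3. H2-Ab1 (chr17:34257689-34269419, plus strand) measured 16.1, 13.2 and 16.6 CPM, then 19, 95.8 and 36.8 CPM, then 51.7, 27.7 and 238 CPM in the same order. For both chains every treated tumor lay above every vehicle tumor, the treated groups overlapped each other, and 1 tumor in each treated group was far above its 2 companions. The SD of H2-Aa was 0.407 CPM in the vehicle group, 36.6 CPM in the R788 + anti-PDL1 group and 107 CPM in the irradiated group.

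H2-Eb1 (chr17:34305867-34316674, plus strand) encodes the beta chain of I-E. It measured 14.1, 11.5 and 11.9 CPM in vehicle tumors, 15.2, 78.8 and 38.2 CPM in R788 + anti-PDL1 tumors, and 53.7, 22.4 and 199 CPM in irradiated tumors. The order of the tumors was nearly that of H2-Ab1. Mice of this strain carry a defective gene for the matching alpha chain, and that gene, H2-Ea-ps, was at 0 in all 9 tumors. H2-Eb2 (chr17:34325665-34341412, plus strand), a related beta chain gene, had counts of 0, 0 and 6 in vehicle tumors, 0, 3 and 0 in R788 + anti-PDL1 tumors, and 0, 0 and 14 in irradiated tumors. A count of 0 allows up to 3 counts, or 0.115 to 0.221 CPM by tumor, counting error only, so H2-Eb2 exceeded that limit in vehicle tumor 3 and irradiated tumor 3 alone.

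Cd74 (chr18:60803848-60812652, plus strand) measured 51.5, 39.9 and 44.2 CPM in vehicle tumors, 55.8, 304 and 121 CPM in R788 + anti-PDL1 tumors, and 170, 81.8 and 656 CPM in irradiated tumors. It kept pace with the chains in each tumor. The ratio of Cd74 to H2-Ab1, both per kb, lay between 4.07 and 5.02 in the 9 tumors, a range of 1.23-fold, while H2-Ab1 itself ran from 13.2 to 238 CPM. The ratio of H2-Eb1 to H2-Ab1 lay between 0.946 and 1.37. The ratio of H2-Aa to H2-Ab1 lay between 0.537 and 0.662 in 8 tumors and was 0.305 in irradiated tumor 1. Over the 9 tumors, which share group and normalization, the log2 CPM of Cd74, H2-Eb1 and H2-Aa correlated with that of H2-Ab1 at r = 0.997, 0.993 and 0.97, and at 0.996, 0.987 and 0.931 without irradiated tumor 3.

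The peptide exchange genes spanned a narrower range than the chains they serve. H2-DMa (chr17:34119541-34139101, plus strand), the alpha chain of H2-DM, measured 10.8, 4.31 and 6.25 CPM in vehicle tumors, 8.38, 20.1 and 12.9 CPM in R788 + anti-PDL1 tumors, and 13.3, 9.94 and 29.7 CPM in irradiated tumors. H2-DMb1 (chr17:34153072-34160230, plus strand), a beta chain of H2-DM, measured 24.3, 15.9 and 16 CPM, then 14.7, 27.2 and 17.1 CPM, then 44.2, 24.1 and 44.3 CPM in the same order. Both genes overlapped between vehicle and each treated group. The ratio of H2-DMb1 to H2-Ab1, both per kb, spanned 8.13-fold, from 2.32 in vehicle tumor 1 to 0.285 in irradiated tumor 3. In irradiated tumor 3, H2-Ab1 was 15.5 times the vehicle mean, H2-DMa 4.17 times and H2-DMb1 2.37 times. Of the 31-base words in H2-DMb1 transcripts, 31.4% also occur in other genes, chiefly its paralog H2-DMb2, so the split of reads between these genes is uncertain. For H2-DMa the share was 9.23%, all with Brd2 on the opposite strand, and the strandedness of the libraries is not given in the sources used here.

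H2-Oa and H2-Ob encode the chains of H2-O, which is best known from B cells. H2-Oa (chr17:34092340-34095234, plus strand) measured 0.994, 1.21 and 1.37 CPM in vehicle tumors, 0.926, 0.726 and 0.82 CPM in R788 + anti-PDL1 tumors, and 1.55, 1.01 and 1.19 CPM in irradiated tumors. It was the tested member that did not follow H2-Ab1 (r = -0.107), and R788 + anti-PDL1 tumor 2, second highest for the chains, was lowest for H2-Oa. An 18.3% share of its 31-base words occurs also in BC051537 on the opposite strand. H2-Ob (chr17:34238903-34254414, plus strand) had counts of 2, 1 and 21 in vehicle tumors, 4, 2 and 7 in R788 + anti-PDL1 tumors, and 3, 7 and 8 in irradiated tumors. Its highest value was in a vehicle tumor, and 4 of the 9 tumors were at or under the limit of 3 counts.

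Ciita (chr16:10480059-10528418, plus strand) had counts of 18, 9 and 17 in vehicle tumors, 36, 176 and 102 in R788 + anti-PDL1 tumors, and 3, 26 and 315 in irradiated tumors. These correspond to 0.994, 0.404 and 0.932 CPM, then 1.59, 6.73 and 4.18 CPM, then 0.221, 1.32 and 14.4 CPM. All 3 R788 + anti-PDL1 tumors lay above all vehicle tumors, whereas irradiated tumor 1 lay below them. The ratio of H2-Ab1 to Ciita, both in CPM, was 8.8 to 32.8 in 8 tumors and 234 in irradiated tumor 1, where Ciita was at the limit of 3 counts. Ciita has the longest exon sequence of the members, at 9.54 kb, against 1.41 to 5.38 kb for the others. In irradiated tumor 1 the median log2 CPM difference from the other 8 tumors was 0.703 for the genes in the shortest of 4 equally filled bins of exon length and -0.696 for those in the longest bin. The part of this length dependence in the values of single members was not tested. The correlation of Ciita with H2-Ab1 was r = 0.724, and 0.483 without irradiated tumor 3.

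**Figure D2:**
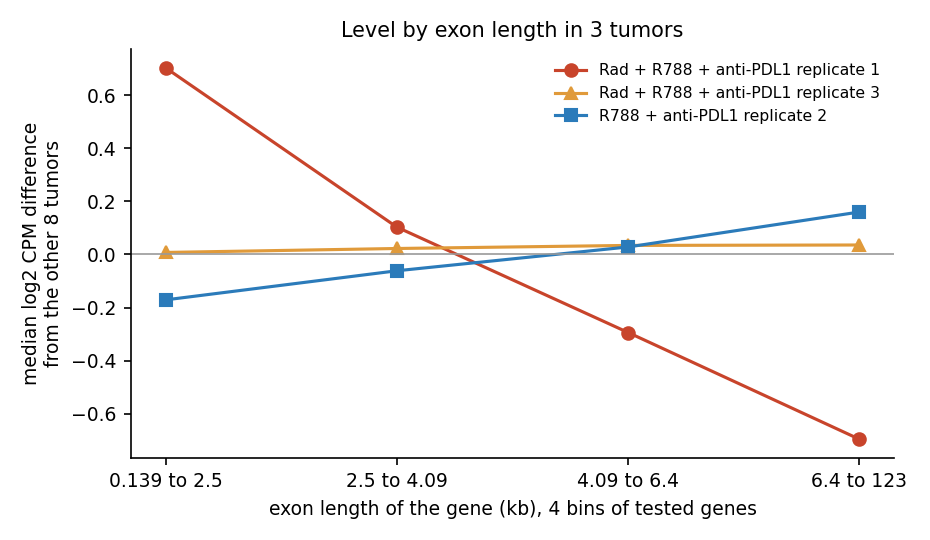
Median log2 CPM difference from the other 8 tumors, for tested genes in 4 equally filled bins of exon length (kb), in irradiated tumors 1 and 3 and R788 + anti-PDL1 tumor 2. Irradiated tumor 1 falls from 0.703 in the shortest bin to -0.696 in the longest, against -0.171 to 0.16 in R788 + anti-PDL1 tumor 2 and 0.00761 to 0.0357 in irradiated tumor 3.

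The first comparison asks whether Syk inhibition with PD-L1 blockade was accompanied by a different level of class II transcripts. Relative to vehicle, R788 + anti-PDL1 tumors had higher average levels of the 3 chains, Cd74 and Ciita. Fold changes were 3.46 for H2-Aa, 3.3 for H2-Ab1, 3.53 for H2-Eb1, 3.55 for Cd74 and 5.37 for Ciita, while H2-DMb1 was at 1.05 and H2-Oa at 0.692. The low-count filter kept 8 of the 10 members (all but H2-Eb2 and H2-Ob) among 15931 genes. By edgeR's quasi-likelihood test with Benjamini-Hochberg adjustment over all of them, 0 of the 8 were called at an adjusted p under 0.05, with 0.678% of all tested genes called. At an unadjusted p under 0.05 there were 2, H2-Eb1 and Cd74 (all genes: 11.7%), and DESeq2 (all genes: 4.83%) and limma-voom each called 0. H2-Eb1 had a log2 fold change of 1.82 ± 0.77 (SE, adjusted p = 0.396) and Cd74 of 1.83 ± 0.77 (adjusted p = 0.395). The 95% intervals were -0.181 to 3.77 for H2-Aa, -0.0496 to 3.5 for H2-Ab1 and -0.67 to 0.813 for H2-DMb1, all on the log2 scale.

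Of the 8 tested members, 5 lay without overlap above vehicle (13.6% of all tested genes did) and 1, H2-Oa, lay without overlap below (16.5%). With 3 tumors a group the smallest p of an exact permutation test is 0.1, so none is given for single genes. The log2 fold change was above 0 for 7 of the 8 (all genes: 48.4%), with a median of 1.76 beside -0.0179 for all tested genes. Without R788 + anti-PDL1 tumor 2, the log2 fold change was 0.95 for H2-Aa, 0.86 for H2-Ab1, 1.1 for H2-Eb1, 0.97 for Cd74 and 1.89 for Ciita.

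The second comparison asks the same of the triple treatment. Relative to vehicle, irradiated tumors had average levels that were 6.3-fold for H2-Aa, 6.91-fold for H2-Ab1, 7.35-fold for H2-Eb1, 6.7-fold for Cd74 and 6.88-fold for Ciita. The exchange genes were at 2.49-fold (H2-DMa) and 2-fold (H2-DMb1), and H2-Oa was at 1.04-fold. By edgeR, 0 of the 8 tested members were called (all genes: 0.0439%), although 7 of 8 had an unadjusted p under 0.05, all higher (all genes: 13.2% in either direction and 7.71% higher). The log2 fold change was 2.88 ± 0.80 for H2-Eb1 (SE, adjusted p = 0.235; 95% interval 1.08 to 4.67), 2.79 ± 0.82 for H2-Ab1 (adjusted p = 0.265) and 2.74 ± 0.80 for Cd74 (adjusted p = 0.258). For H2-Oa it was 0.06 ± 0.44 (95% interval -0.916 to 1.04). All 8 lay above 0 (all genes: 52.9%), the median was 2.7 beside 0.046 for all tested genes, and 4 lay without overlap above vehicle (all genes: 9.27%), namely H2-Aa, H2-Ab1, H2-Eb1 and Cd74.

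The calls in this comparison depended on the tool and on single tumors of both groups. DESeq2 called the same 4 genes, at adjusted p = 0.0286 for H2-Aa, 0.00763 for H2-Ab1, 0.00413 for H2-Eb1 and 0.00692 for Cd74 (all genes by DESeq2: 3.85%), and limma-voom called 0. Without irradiated tumor 3, DESeq2 called 0 of the 8 (474 genes in all, beside 613 with all 9 tumors). The log2 fold changes by edgeR were then 0.75 for H2-Aa, 1.37 for H2-Ab1, 1.6 for H2-Eb1, 1.47 for Cd74, 0.70 for H2-DMa and 0.03 for Ciita. Without vehicle tumor 2 DESeq2 also called 0 (208 genes in all), and without vehicle tumor 3 it called 1 (215 genes in all). It called 5 each without irradiated tumor 1 (953 genes in all), irradiated tumor 2 (710) or vehicle tumor 1 (811). The DESeq2 log2 fold changes without vehicle tumor 2 were 2.64 for H2-Aa, 2.71 for H2-Ab1, 2.83 for H2-Eb1 and 2.68 for Cd74. By edgeR, H2-DMb1 had a log2 fold change of 1 ± 0.33 (adjusted p = 0.291) in all 9 tumors and 0.86 without irradiated tumor 3.

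The third comparison asks what radiation added. Irradiated tumors against R788 + anti-PDL1 tumors gave log2 fold changes between 0.36 and 1.07 for the 8 tested members, all above 0 (all genes: 52.5%), with a median of 0.889 beside 0.0404 for all tested genes. By edgeR 0 members were called (all genes: 0.00628%), as by DESeq2 (all genes: 5.17%) and limma-voom, and 1 had an unadjusted p under 0.05 (all genes: 18.4%). That member was H2-DMb1, at 0.93 ± 0.33 (SE, adjusted p = 0.229; 95% interval 0.184 to 1.67). H2-Oa was the 1 member without overlap, higher in the irradiated group (all genes: 14.2%), at 0.59 ± 0.44 (adjusted p = 0.458). For H2-Ab1 the 95% interval was -0.665 to 2.8 and for Ciita -2.12 to 2.84, so changes of several fold in either direction were within the error for Ciita. Without irradiated tumor 3 the sign turned for 6 members. The log2 fold change was then -1.04 for H2-Aa, -0.35 for H2-Ab1, -0.22 for H2-Eb1, -0.25 for H2-DMa, -0.35 for Cd74 and -2.39 for Ciita. H2-DMb1 (0.79) and H2-Oa (0.63) stayed above 0. The 3 comparisons share tumors and are not independent of each other.

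**Figure D3:**
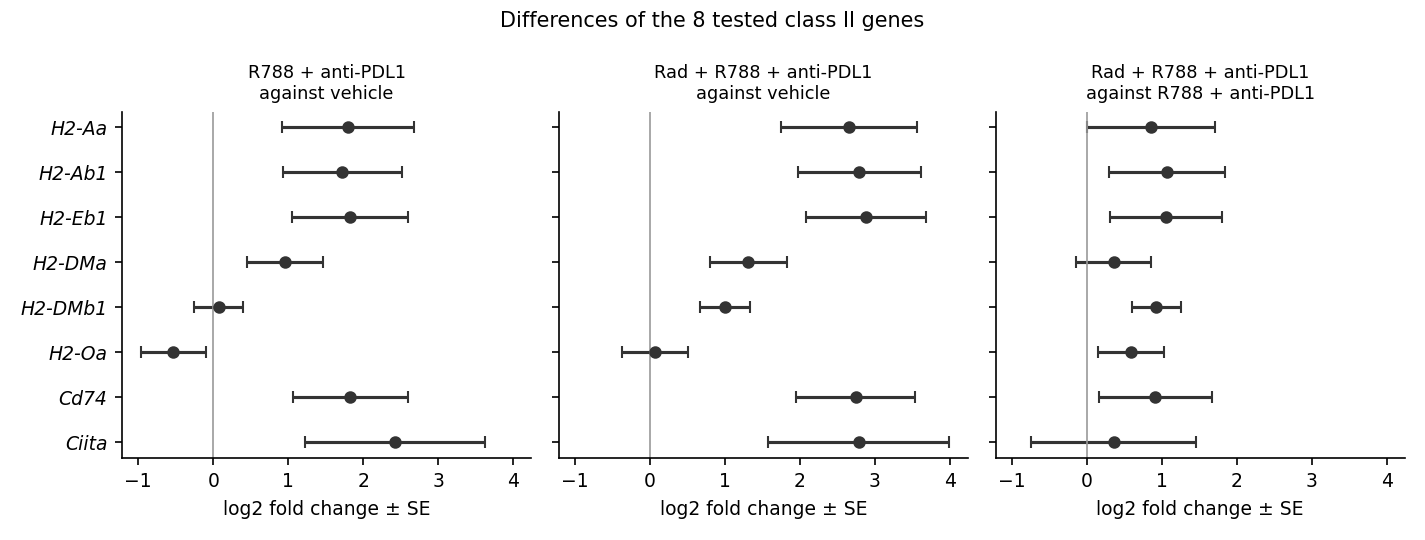
Log2 fold change (point) with its SE (bar) from edgeR for the 8 tested class II genes in the 3 comparisons. Against vehicle, the 3 chains, Cd74 and Ciita lie between 1.72 and 2.88, and H2-Oa lies at -0.53 and 0.06.

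**Figure D4:**
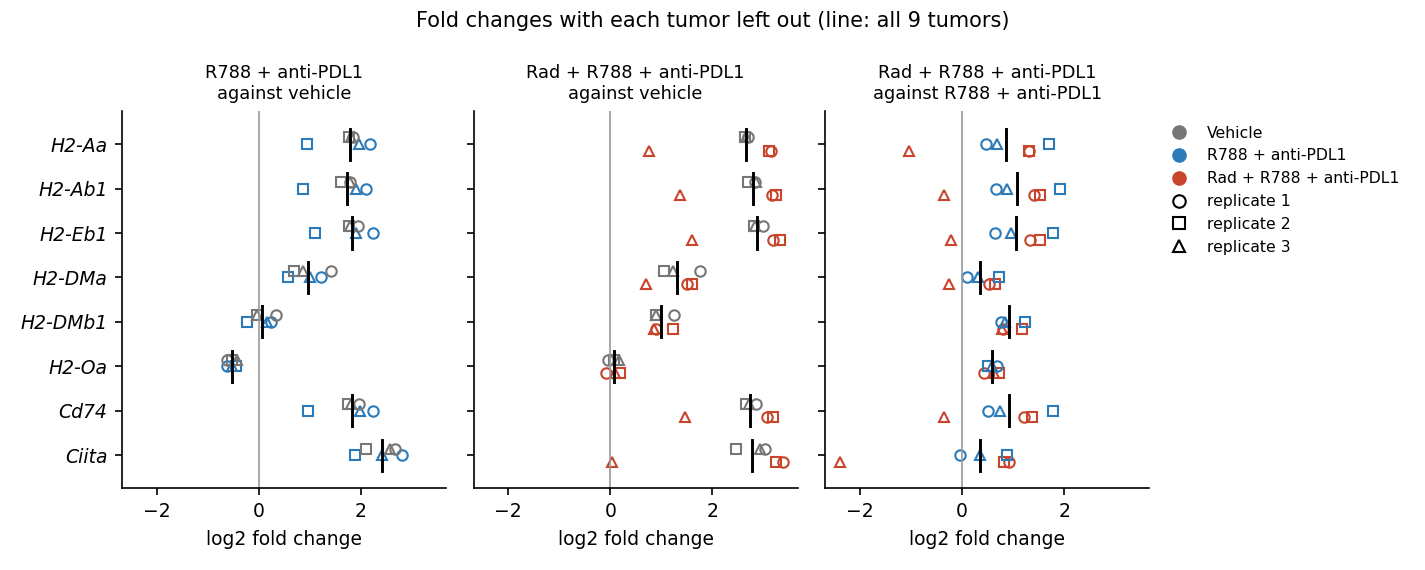
Log2 fold change of each tested class II gene with each tumor of the comparison left out in turn, with color for the group and symbol for the replicate of the tumor left out and a black line for all 9 tumors. Leaving out irradiated tumor 3 gives the lowest value for the chains, Cd74 and Ciita in both comparisons of the irradiated group, down to -2.39 for Ciita.

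Class II levels were set beside markers of the cells that could carry them. The summed level of H2-Aa, H2-Ab1 and H2-Eb1 was 6.36 times the vehicle mean in R788 + anti-PDL1 tumor 2, where 12 macrophage markers summed to 1.5 times, 4 leukocyte markers to 2.16 times, 10 dendritic cell markers to 1.76 times and 8 B cell markers to 1.12 times. In the other tumors of that group, 1 and 3, macrophage markers were higher, at 1.63 and 1.66 times, with the chains at 1.25 and 2.66 times. In irradiated tumor 3 the chains stood at 15.6 times, macrophage markers at 4.56 times, leukocyte markers at 4.29 times and dendritic cell markers at 2.66 times the vehicle mean. The ratio of the chains to macrophage markers was 0.103 to 0.167 in vehicle tumors, 0.102, 0.566 and 0.214 in R788 + anti-PDL1 tumors, and 0.306, 0.271 and 0.457 in irradiated tumors. The last group lay above the vehicle group without overlap. Of all tested genes, 9.27% did so as single genes, and no such share was computed for ratios. Macrophage markers in irradiated tumor 1 summed to 1.36 times the vehicle mean. The part of that tumor's exon length dependence in its ratio was not tested.

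**Figure D5:**
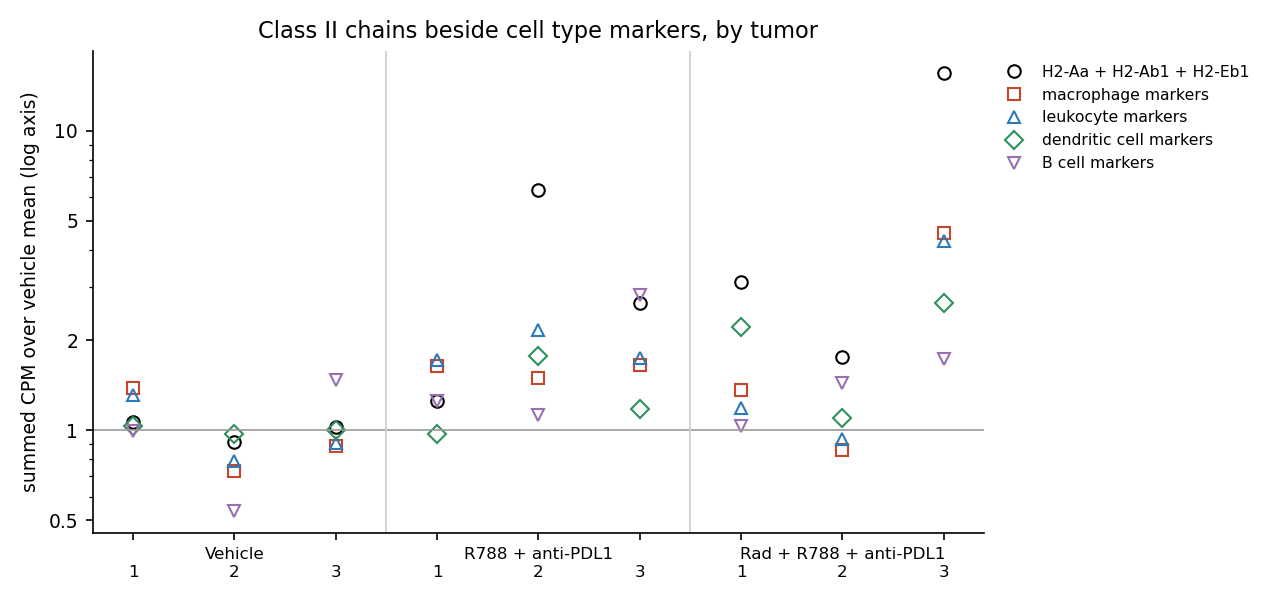
Summed CPM of H2-Aa, H2-Ab1 and H2-Eb1 and of 4 marker lists in each tumor, divided by the vehicle mean, on a log axis. In R788 + anti-PDL1 tumor 2 and irradiated tumor 3 the chains reach 6.36 and 15.6 times the vehicle mean, above every marker list.

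All 12 macrophage markers passed 10 counts in every tumor, and their sum ranged from 226 to 428 CPM in vehicle tumors, 463 to 512 CPM in R788 + anti-PDL1 tumors and 266 to 1410 CPM in irradiated tumors. Leukocyte markers summed to 65.1 to 108 CPM, 142 to 178 CPM and 77.1 to 354 CPM, and dendritic cell markers to 30.7 to 32.7 CPM, 30.8 to 56 CPM and 34.8 to 84.4 CPM. The dendritic cell markers did not move as 1 list. Clec10a, a lectin shared by dendritic cells and some macrophages, was at 18 CPM in R788 + anti-PDL1 tumor 2 and 34.3 CPM in irradiated tumor 3 against 1.88 to 7.5 CPM in the other 7. Batf3, a dendritic cell transcription factor, gave 46 of the 70.4 CPM of the list in irradiated tumor 1 and was at 5.42 to 11.3 CPM in the other 8, and Zbtb46 stayed at 10.6 to 13.8 CPM. B cell markers stayed between 1.08 and 5.7 CPM in sum, and no B cell marker had 10 counts in every tumor. By edgeR, 0 leukocyte, macrophage, dendritic cell or B cell markers were called in any of the 3 comparisons. DESeq2 called the macrophage markers Aif1 (adjusted p = 0.00157) and C1qa (adjusted p = 0.0497) as higher in irradiated than in vehicle tumors, and the dendritic cell marker Batf3 (adjusted p = 0.0409) as higher in irradiated than in R788 + anti-PDL1 tumors. At an unadjusted p under 0.05 by edgeR, 4 of 12 macrophage markers were higher in irradiated than in vehicle tumors (all genes: 7.71%), and without irradiated tumor 3 there were 1 higher and 2 lower. Against R788 + anti-PDL1 tumors, also without irradiated tumor 3, 7 of 12 macrophage and 3 of 4 leukocyte markers were lower and 0 higher. In that fit 4033 of 16388 genes had an unadjusted p under 0.05 in either direction. Of the 10 neuroblast markers 5 were tested, and edgeR called 1, Isl1, in the comparison of R788 + anti-PDL1 with vehicle (adjusted p = 0.0344, listed at 0 in all vehicle tumors). DESeq2 called Isl1 there as higher (adjusted p = 8.27e-08) and Ddc (0.0157) and Gata3 (0.0108, groups overlapping) as lower. It also called Isl1 as higher in irradiated than in vehicle tumors (2.16e-05). Gata3 was called by DESeq2 as higher in irradiated than in R788 + anti-PDL1 tumors (0.00447). The edgeR call of Isl1 was lost without R788 + anti-PDL1 tumor 1 or 3 or vehicle tumor 2 or 3, at an adjusted p of 0.111 to 0.216. In these fits edgeR called 0 of all tested genes. The log2 fold change of Isl1 stayed at 8.51 to 8.94 with any tumor of the comparison left out. The sum of the 10 neuroblast markers was 506 to 981 CPM. The part of cell makeup in the class II values was not tested.

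Of the 7 factors that bind the promoter module (Rfx5, Rfxank, Rfxap, Creb1, Nfya, Nfyb and Nfyc), all tested, 0 were called by edgeR or DESeq2 in any comparison, and the median log2 fold change was -0.0577, -0.26 and -0.203 in the 3 comparisons in order. Irradiated tumor 1 was the lowest tumor for Rfx5 (13.1 CPM), Creb1 (26.8 CPM) and Nfya (43.2 CPM) and the highest for Rfxap (56.6 CPM). Irradiated tumors 2 and 3 were at 32.2 and 39.5 CPM for Rfx5, 68.2 and 63.8 CPM for Creb1 and 85 and 83.5 CPM for Nfya. The part of exon length in these medians was not tested. Rfxank lay without overlap above vehicle in R788 + anti-PDL1 tumors, at 0.40 ± 0.20 (adjusted p = 0.489). Nfyb was the 1 with an unadjusted p under 0.05, at -0.49 ± 0.18 in irradiated against vehicle tumors (adjusted p = 0.317). Of 11 genes on the interferon gamma route to Ciita, 10 were tested, and 0 were called by edgeR. DESeq2 called Socs1 in 2 comparisons. Socs1, a feedback inhibitor of this route, was at -0.99 ± 0.26 in R788 + anti-PDL1 against vehicle tumors (adjusted p = 0.143 by edgeR and 0.0187 by DESeq2) and at 1.08 ± 0.27 in irradiated against R788 + anti-PDL1 tumors (adjusted p = 0.184 by edgeR and 0.00833 by DESeq2). Ifng did not pass the filter, and reached 1.23 CPM in irradiated tumor 3 against 0 to 0.229 CPM elsewhere.

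Of 8 genes of endolysosomal processing, edgeR called 1. Lamp1, a lysosomal membrane glycoprotein, fell in R788 + anti-PDL1 tumors, from 3000, 2170 and 2390 CPM in vehicle tumors to 963, 464 and 801 CPM, a log2 fold change of -1.76 ± 0.30 (adjusted p = 0.0397). With any 1 of the 6 tumors left out, Lamp1 was no longer called, at an adjusted p of 0.0661 to 0.222. In irradiated tumors Lamp1 was at 942, 1100 and 1050 CPM, also below every vehicle tumor, at -1.29 ± 0.29 (adjusted p = 0.159 by edgeR and 0.00148 by DESeq2). Ctss, the protease that trims the invariant chain, was at 1.47 ± 0.53 in irradiated against vehicle tumors (adjusted p = 0.32) and reached 187 CPM in irradiated tumor 3 against 26.8 to 66.5 CPM in the other 8. Of 5 tested genes of class II traffic and turnover 0 were called. March1, the ubiquitin ligase that sends class II molecules for degradation, was at 7.72 CPM in R788 + anti-PDL1 tumor 2 and 11.2 CPM in irradiated tumor 3, against 0.59 to 3.77 CPM in the other 7. H2-DMb2, the other beta chain of H2-DM, was the tested gene among the other class II loci, at 1.96 ± 0.68 in irradiated against vehicle tumors (adjusted p = 0.307).

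Of 8 T cell genes that meet class II, 3 passed the filter (Cd4, Lag3 and Trac), with 0 called by edgeR. Cd4, the coreceptor, which some myeloid cells also transcribe, measured 22.9, 2.03 and 12.2 CPM in R788 + anti-PDL1 tumors against 0.898 to 3.09 CPM in vehicle tumors, at 2.90 ± 1.06 (adjusted p = 0.319). DESeq2 called Cd4 there (adjusted p = 0.0375). R788 + anti-PDL1 tumor 2, highest of its group for the chains, was lowest for Cd4. Lag3, an inhibitory receptor for class II, was at 1.52 ± 0.57 in irradiated against vehicle tumors (adjusted p = 0.332). Cd3e, a T cell receptor subunit, was at 2.47 CPM in irradiated tumor 3 and at 0.041 to 0.274 CPM in the other 8.

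The 8 genes whose log2 CPM was most like the mean standardized log2 CPM of the 8 tested members over the 9 tumors were Pld4, Fcrls, Dok3, Naaa, Ifi47, Slfn5, Cep85 and Slfn2, with Pearson r between 0.951 and 0.969. Pld4, a lysosomal exonuclease, measured 24.4 CPM in R788 + anti-PDL1 tumor 2 and 70.5 CPM in irradiated tumor 3, against 4.94 to 14.2 CPM in the other 7. Fcrls, an Fc receptor-like gene of macrophages, measured 17.3 and 52.8 CPM in these 2 tumors against 2.65 to 8.77 CPM. Ifi47, an interferon-inducible GTPase, measured 5.01 and 15 CPM against 0.994 to 3.32 CPM. Without irradiated tumor 3 the 8 genes ranked between 16 and 181 of 15923, with r between 0.842 and 0.932.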

How the data were processed

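RNA-seq of 9 whole tumors was used. According to the labels and the paper's methods, reads were aligned by the authors to mm10 with STAR (2.6.1d) and quantified them with Salmon (1.4.0). Picard 2.26, SAMtools 1.9 and MultiQC 1.11 are named in the submitters' processing notes. The labels name a paired-end NovaSeq run and the paper a single-read HiSeq run. Values in the deposited table were estimated counts for each symbol, whole and not normalized.

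Groups were taken from the treatment labels. Genes were filtered with filterByExpr (minimum count 10), normalized by TMM and tested with robust quasi-likelihood F tests in edgeR 4.0.16 (R 4.3.3), two-sided, on all 9 libraries with 1 coefficient per group and no covariate. Levels are CPM. Coordinates and exon lengths are from GENCODE M21 (GRCm38), which matched 98.9% of symbols. DESeq2 1.42.0, limma-voom (limma 3.58.1), RLE and upper-quartile scaling, no filter, 10 counts in every library, only the 6 libraries compared, a replicate block and each tumor left out were tried as alternatives. DESeq2 with a tumor left out, and calls in the other lists by DESeq2 and without irradiated tumor 3, were added after the data were seen. Scripts were tested on simulated data. The depth of 18276683 to 23397886 counts puts the limit of a count of 0 at 0.115 to 0.221 CPM.

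The members and lists were chosen with earlier results of these data known. All members were named. From the other lists, genes with an adjusted p under 0.05 or else the 2 with the smallest p per comparison could be named, and the 8 genes most like the members. H2-Ea-ps, Ifng, Cd3e, Zbtb46, the neuroblast markers other than Isl1, and the levels of Rfx5, Rfxap and Nfya were named after their values were seen. Some list genes are not reported here.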

Additional observations from a re-analysis of the deposited data

How the results depend on the processing

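Over the 3 comparisons, 333 log2 fold changes of members were recomputed under the alternatives, of which 319 kept their direction, 14 turned and 4 were called, all 4 by DESeq2 in irradiated against vehicle tumors. In that comparison DESeq2 called 4 members, and 0 to 5 with a tumor left out, where it called 208 to 953 genes in all. In each comparison, every other alternative run on members called 0. Counts of all genes called, 108, 7 and 1 in the main test of the 3 comparisons in the order of the report, were 770, 613 and 823 by DESeq2. By limma-voom they were 111, 12 and 8, and they were 199, 70 and 24 without the low-count filter, and 594, 1 and 0 in the 6 libraries compared. With a tumor left out they ranged over 0 to 75, 1 to 57 and 0 to 21. Tumors with the same number deviated together (r over 0.1) in 2 of 9 pairs (-0.046 to 0.23), so the numbers were not taken as pairs. A replicate block gave 0, 3 and 0 genes and 0 members in each comparison, and Lamp1 in R788 + anti-PDL1 against vehicle tumors was no longer called (adjusted p = 0.072).

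Directions turned as follows, on the log2 scale. In R788 + anti-PDL1 against vehicle tumors, H2-DMb1 ranged over -0.24 to 0.33 with a tumor left out, and was -0.24 without R788 + anti-PDL1 tumor 2, -0.04 without vehicle tumor 2 and -0.04 without vehicle tumor 3. In irradiated against vehicle tumors, H2-Oa ranged over -0.082 to 0.19, and was -0.082 without irradiated tumor 1 and -0.04 without vehicle tumor 1, and Ptprc ranged from -0.29 without irradiated tumor 3 to 2.04. In irradiated against R788 + anti-PDL1 tumors, Ciita was -0.81 by limma-voom, -0.61 with the replicate block, and -0.03 without R788 + anti-PDL1 tumor 1. Laptm5 was -0.29 by limma-voom and -0.17 with the block. With a tumor left out, the lowest values of the following genes came without irradiated tumor 3, and Cd4 was above 0 without R788 + anti-PDL1 tumor 1. The ranges were -2.39 to 0.93 for Ciita, -1.06 to 0.50 for Laptm5, -1.89 to 0.18 for Cd4, -1.04 to 1.7 for H2-Aa, -0.35 to 1.92 for H2-Ab1, -0.22 to 1.78 for H2-Eb1, -0.25 to 0.73 for H2-DMa and -0.35 to 1.78 for Cd74. The cause was not tested. Without the filter, H2-Eb2 and H2-Ob had adjusted p-values of 0.611 to 0.922 by edgeR, and their depth allows no statement on a difference.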
